A study of Mus musculus with 3 samples.

Results

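Fibroblast growth factors (FGFs) are secreted ligands that bind receptor tyrosine kinases of the FGFR family together with heparan sulfate. The bound receptor recruits adaptor proteins and drives the RAS-RAF-MEK-ERK kinase cascade. In mouse embryonic stem cells (mESCs), FGF4 made by the cells themselves is the main stimulus of ERK, which moves cells out of the naive state of the pre-implantation epiblast, whereas epiblast stem cells (mEpiSCs), the primed counterpart that resembles epiblast after implantation, are kept with added FGF and Activin A. The 9 genes described here are 5 FGF ligand genes (Fgf4, Fgf5, Fgf8, Fgf15 and Fgf17) and the 4 FGF receptor kinase genes (Fgfr1, Fgfr2, Fgfr3 and Fgfr4), chosen by symbol out of 22180 genes with a probe set of a single symbol. They were covered by 10 of 33793 probe sets, 2 of them for Fgf15.

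RNA from 3 cultures was measured on Mouse Gene 2.0 ST arrays (Affymetrix), with a single array for each. The mEpiSCs had been induced in culture from mESCs of the established line EB3 and were kept with Activin A (20 ng/ml), a ligand of the TGF-beta family, and 12 ng/ml bFGF, the FGF2 protein, and the labels state no duration. The Activin+PD culture held EB3 mESCs after 64 days in Activin A (20 ng/ml) plus PD0325901 (2 µM), an inhibitor of the ERK kinase MEK. The 2i culture held EB3 mESCs after 34 days in the same MEK inhibitor (2 µM) plus CHIR99021 (2 µM), which inhibits GSK3. All 3 groups came from the same cell line and shared the N2B27 base medium, and both mESC cultures shared the MEK inhibitor. Activin A was common to the mEpiSC and Activin+PD cultures, so each pair of cultures differed in more than 1 factor, and the effects of state, medium and time in culture cannot be told apart.

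The values were probe set intensities on a linear scale, with medians of 51.9 (mEpiSC), 50.9 (Activin+PD) and 51.2 (2i). Background, taken from 1405 probe sets of odorant and pheromone receptors (olfactory and vomeronasal genes) at their 95th percentile, was a log2 intensity of 5.57, 5.50 and 5.59 on these arrays. Differences are given on the log2 scale with the second-named array subtracted from the first, and 2-fold, a log2 difference of 1, was the size from which genes were counted as apart. There were no replicates, so no difference was tested and "higher" and "lower" describe these 3 arrays. The only error at hand was that between probe sets of the same gene, which was 0.24 (log2) when Activin+PD was set against 2i. It was 0.36 for mEpiSCs against 2i, and 0.33 for mEpiSCs against Activin+PD. That error leaves out the variation between cultures, and in total RNA a lower level can mean fewer expressing cells or less RNA per cell, which cannot be told apart. Levels were set side by side between arrays for the same probe set and never between genes.

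The states named in the labels were described by marker genes. These were listed with earlier results of these data known, so their counts are no independent check. Of 13 naive markers, 11 were at least 2-fold lower in mEpiSCs than in 2i, and Zfp42 stood at a log2 level of 5.94 in mEpiSCs, 11.45 in Activin+PD and 11.18 in 2i. Of 12 primed markers, 7 were at least 2-fold higher in mEpiSCs than in 2i. Among all genes, 4.96% were lower and 4.53% higher in that comparison. Between the mESC cultures, 0 of 13 naive markers and 1 of 12 primed markers were 2-fold apart, beside 2.2% of all genes. The exception was Otx2, higher in Activin+PD by at least 4.68-fold since 2i was below background. The 14 fibroblast markers, which would show feeder cells, summed to an intensity of 1030 in mEpiSCs, 818 in Activin+PD and 818 in 2i. Of these, 10 were above background in mEpiSCs, 9 in Activin+PD and 10 in 2i, while Lum, Dcn, Postn and S100a4 were below it on all 3 arrays. Of the fibroblast markers 1 was 2-fold apart, Twist1, which was 2.88-fold higher in mEpiSCs than in 2i. The 10 neuroectoderm markers summed to 1205 in mEpiSCs, 1317 in Activin+PD and 1054 in 2i, with single genes going opposite ways. Nes was 3.79-fold higher in mEpiSCs than in 2i, Tubb3 was 5.65-fold lower in mEpiSCs than in Activin+PD, and Olig3 was 3.08-fold lower in Activin+PD than in 2i.

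The promoters of Fgf4 and Fgf5 are shown because these ligands went in opposite directions between the states. Both windows run from 250 bases before to 50 bases after the RefSeq start on the gene's own strand, in build GRCm38.p6, at chr7:144861136-144861435 (plus strand) for Fgf4 and chr5:98253934-98254233 (plus strand) for Fgf5. Capitals mark matches, on either strand, to a GC box (GGGCGG) or to the TATA-like words TATAAA and TATATA, which were added to the search after the windows had been seen.
Fgf4: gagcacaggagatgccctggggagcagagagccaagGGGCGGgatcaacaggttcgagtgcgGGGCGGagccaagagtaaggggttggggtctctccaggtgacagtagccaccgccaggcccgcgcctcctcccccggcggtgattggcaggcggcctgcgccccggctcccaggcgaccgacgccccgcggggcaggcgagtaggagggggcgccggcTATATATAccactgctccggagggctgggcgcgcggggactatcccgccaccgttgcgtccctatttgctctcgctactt
Fgf5: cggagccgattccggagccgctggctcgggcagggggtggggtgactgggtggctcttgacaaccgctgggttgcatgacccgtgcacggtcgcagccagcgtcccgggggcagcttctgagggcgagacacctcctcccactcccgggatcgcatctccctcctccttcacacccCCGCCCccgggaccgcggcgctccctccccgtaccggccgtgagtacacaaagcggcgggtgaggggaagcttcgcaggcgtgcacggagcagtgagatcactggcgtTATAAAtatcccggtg
Both windows were rich in G and C, at 69.7% for Fgf4 and 68.3% for Fgf5, against a median of 52.7% over 32851 RefSeq windows. The Fgf4 window held 2 GC boxes and overlapping TATATA words from 30 bases before the start, and the Fgf5 window held 1 GC box, on the other strand, 74 bases before the start and TATAAA at base 35 after it. A GC box is in 35.7% of all windows, TATATA in 5.67% and TATAAA in 13.6%. The ETS word CCGGAAG (8.86% of all windows), the TCF/LEF word CTTTGAT (3.73%) and the SMAD words GTCTAGAC (0.213%) and CAGAC (49.6%) had no match on either strand in either window. These letter matches describe the windows and show no binding.

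Fgf5, a ligand of the post-implantation epiblast that is widely used as a marker of the primed state, had the widest range of the 9 genes. Its intensity was 1879 in mEpiSCs, 135 in Activin+PD and 48.4 in 2i. The 2i value lay only 0.0092 above background on the log2 scale, whereas the mEpiSC value lay 5.31 and the Activin+PD value 1.58 above it. The difference was 5.28 for mEpiSC minus 2i, or 38.8-fold, which put Fgf5 in place 1 of 12809 genes above background on both arrays. For mEpiSC minus Activin+PD it was 3.80, or 13.9-fold. Between the mESC cultures Fgf5 was 2.79-fold higher in Activin+PD, a difference of 1.48 against a probe set error of 0.24. The 3 levels thus ran from 2i through Activin+PD to mEpiSCs, with each step wider than the probe set error.

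Fgf4, the ligand through which mESCs stimulate their own ERK pathway, ran the other way between the states. It had an intensity of 426 in mEpiSCs, 1810 in Activin+PD and 1225 in 2i. All 3 values were well above background, the lowest by 3.16 on the log2 scale. Fgf4 was 4.25-fold lower in mEpiSCs than in Activin+PD, a log2 difference of -2.09, and 2.88-fold lower than in 2i, a difference of -1.52. In Activin+PD it was 1.48-fold higher than in 2i, within 2-fold, with a log2 difference of 0.56.

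Fgf15 is the mouse counterpart of human FGF19 and an endocrine FGF best known as the intestinal signal that lowers bile acid synthesis in the liver. By its brighter probe set it was high in both cultures with Activin A and low in 2i. The 2i culture lacked Activin A and was the only one with CHIR99021, so these factors cannot be told apart. The brighter probe set of Fgf15 had an intensity of 304 in mEpiSCs, 419 in Activin+PD and 66.9 in 2i. The 2i value was 0.48 above background on the log2 scale. Fgf15 was 6.26-fold higher in Activin+PD than in 2i, a log2 difference of 2.65 and place 6 of 13059 genes above background on both arrays, and 4.54-fold higher in mEpiSCs than in 2i, a difference of 2.18. The mEpiSC and Activin+PD arrays were within 2-fold of each other, at -0.46. The other probe set of Fgf15 did not show the pattern, with intensities of 68.7 in mEpiSCs, 70.3 in Activin+PD and 64.4 in 2i. Its differences from 2i were 0.13 for Activin+PD and 0.093 for mEpiSCs. With both probe sets averaged on the log2 scale, the differences from 2i were 1.39 for Activin+PD and 1.14 for mEpiSCs. These averages pass the size counted through the brighter probe set alone and are no separate evidence. Why the probe sets differ was not tested.

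Fgf8 and Fgf17 encode closely related ligands that the embryo uses in gastrulation and in the patterning of the midbrain. Fgf8 had an intensity of 230 in mEpiSCs, 71.4 in Activin+PD and 60.2 in 2i. It was 3.82-fold higher in mEpiSCs than in 2i and 3.22-fold higher than in Activin+PD, with log2 differences of 1.93 and 1.69, whereas the mESC cultures differed by 0.25, close to the probe set error. Fgf17 was brightest in Activin+PD, with 118 in mEpiSCs, 182 in Activin+PD and 93.8 in 2i. Its difference of 0.96 for Activin+PD minus 2i was 1.94-fold and so just under the size counted, and the mEpiSC level lay between those of the mESC cultures, at 0.33 above 2i and -0.63 from Activin+PD. In the embryo Fgf8 is active in primitive streak and mesoderm, which were followed by 11 markers. In mEpiSCs, 5 of the 11 (Mixl1, Eomes, Lhx1, Wnt3 and Gsc) were 2-fold higher than in 2i, beside 4.53% of all genes. The other 6 were within 2-fold, and the median difference of the list was 0.25. Its summed intensity was 2678 in mEpiSCs, 776 in Activin+PD and 783 in 2i. The mesoderm gene Tbx6 was level, at 6.20 in mEpiSCs, 6.15 in Activin+PD and 6.20 in 2i, and so was Mesp2, at 6.36, 6.39 and 6.42 on the same arrays. The part of such cells in the Fgf8 level was not tested.

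**Figure D1:**
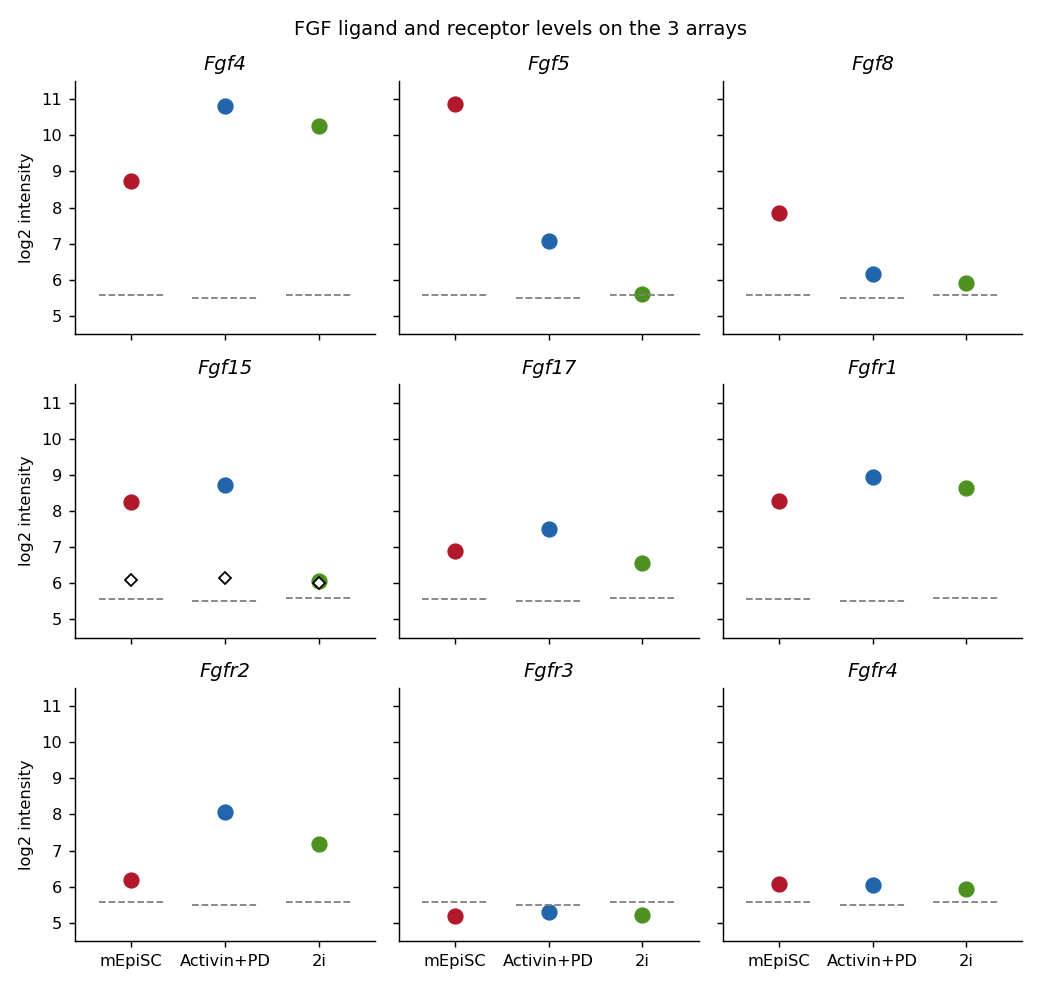
Log2 intensity of each FGF ligand and receptor gene on the mEpiSC, Activin+PD and 2i arrays, 1 point per array, with the background of each array as a dashed line and the other probe set of Fgf15 as open diamonds. Fgf5 and Fgf8 are highest in mEpiSCs, Fgf4 and Fgfr2 are lowest there, and the brighter probe set of Fgf15 is low only in 2i. Fgfr3 lies below background on all 3 arrays.

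Among the receptors, Fgfr2 differed most between arrays. The gene gives rise to splice forms with different ligand preference, which these gene-level values do not separate. Its intensity was 72.5 in mEpiSCs, 265 in Activin+PD and 146 in 2i, so that it was 3.66-fold lower in mEpiSCs than in Activin+PD and 2.01-fold lower than in 2i, with log2 differences of -1.87 and -1.01. The second of these was barely past 2-fold. In Activin+PD Fgfr2 was 1.82-fold higher than in 2i, a difference of 0.87 that was larger than the probe set error and under 2-fold. In the embryo Fgfr2 is also active in trophectoderm, whose 9 markers had a summed intensity of 2178 in mEpiSCs, 1004 in Activin+PD and 1210 in 2i. Of the 8 above background, 3 were 2-fold higher and 2 lower in mEpiSCs than in 2i, so the list had no common direction. Tfap2c, with log2 levels of 6.18 in mEpiSCs, 7.30 in Activin+PD and 7.24 in 2i, ran in the order of Fgfr2, as did Esx1 and Hand1 with smaller differences. Krt18, Eomes and Krt8 went the other way, higher in mEpiSCs than in 2i by 2.41, 2.38 and 1.82. Eomes is also counted among the markers of primitive streak and mesoderm. Cdx2 was highest in 2i, at 8.64, against 5.91 in mEpiSCs and 5.84 in Activin+PD. Gata3 was highest in Activin+PD, as Fgfr2 was, at 7.71, against 6.46 in mEpiSCs and 6.15 in 2i, where it was lowest. The other probe set of Gata3 was within 2-fold, at 6.15 in mEpiSCs, 6.36 in Activin+PD and 6.18 in 2i. The part of such cells in the Fgfr2 level was not tested.

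Fgfr1, the main FGF receptor of the epiblast, differed less. Its intensity was 312 in mEpiSCs, 489 in Activin+PD and 397 in 2i, in the same order as Fgfr2, with log2 differences of -0.65 for mEpiSC minus Activin+PD, -0.35 for mEpiSC minus 2i and 0.30 for Activin+PD minus 2i. The first of these was larger than the probe set error of 0.33, and the other 2 were close to theirs. Fgfr4, a receptor of endodermal tissues, was dim and nearly level, with 66.9 in mEpiSCs, 65.5 in Activin+PD and 61.1 in 2i, and its widest difference was 0.13. Fgfr3, best known as a brake on bone growth, was below background on all 3 arrays, at 36.7 in mEpiSCs, 39.2 in Activin+PD and 37.1 in 2i, so no difference is given. Primitive endoderm, the early lineage marked by Fgfr4 and Fgfr2 in the embryo, was followed by 12 markers. Their summed intensity was 2317 in mEpiSCs, 2178 in Activin+PD and 1605 in 2i, and 11 were above background on at least 1 array. Against 2i, 3 of these 11 were 2-fold higher and 1 lower in mEpiSCs. Gata6 was above background in mEpiSCs alone, at 7.09, and Lama1 was highest in 2i, at 7.77, against 6.12 in mEpiSCs and 6.11 in Activin+PD. Pdgfra, Col4a1, Col4a2 and Sparc were highest in Activin+PD, as Fgfr1 and Fgfr2 were, but lowest in 2i, where these receptors were not. Foxa2 was highest in mEpiSCs, at 8.01, against 6.35 in Activin+PD and 6.25 in 2i. So was Lamb1, at 9.47, against 9.06 in Activin+PD and 7.73 in 2i, and so were Gata4, Sox17 and Dab2. The list thus had no common direction. The part of such cells in the receptor levels was not tested.

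Counted together, 2 of the 8 members compared, Fgf5 and Fgf15, exceeded their 2i level by 2-fold or more in Activin+PD, and 0 were lower. Among all 14022 genes compared on these arrays, 2.2% were at least 2-fold apart, 1.38% higher and 0.82% lower. All 8 members had a difference above 0, from 0.10 for Fgfr4 to 2.65 for Fgf15, and their median was 0.71, beside -0.0059 over all genes, of which 49.0% were above 0. In mEpiSCs against 2i, 3 of 8 were higher (Fgf5, Fgf15 and Fgf8) and 2 were lower (Fgf4 and Fgfr2), where 9.48% of 14223 genes were apart, 4.53% higher and 4.96% lower. In mEpiSCs against Activin+PD, 2 of 8 were higher (Fgf5 and Fgf8) and 2 were lower (Fgf4 and Fgfr2), where 8.96% of 14383 genes were apart, 3.59% higher and 5.37% lower. The 3 comparisons share arrays in pairs, so they are not independent of each other. The members were chosen with earlier results on these arrays known, and with 8 members these shares describe the genes and test nothing.

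**Figure D2:**
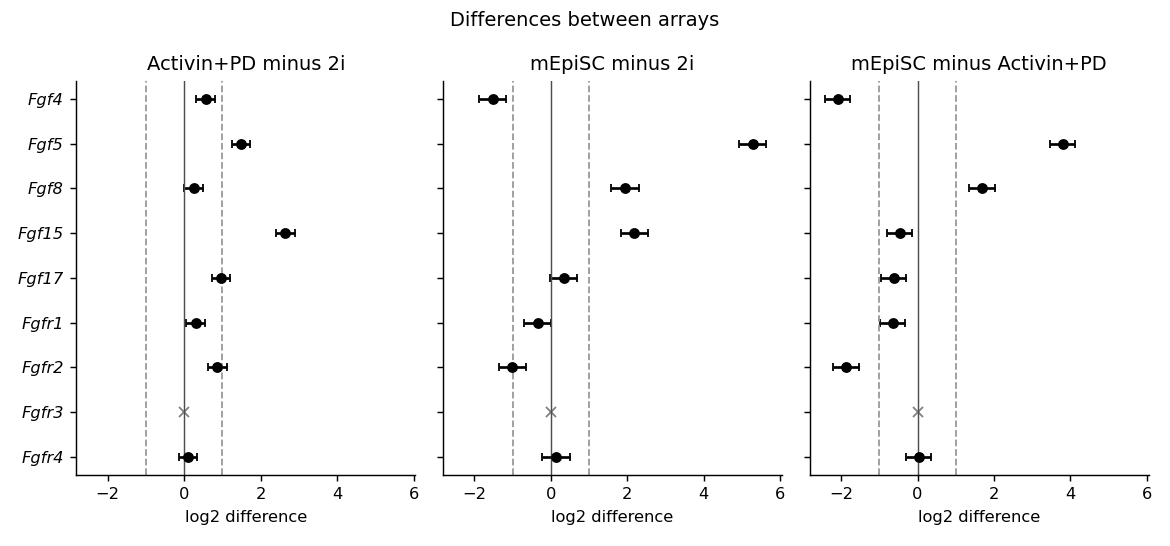
Log2 differences of the FGF ligand and receptor genes in the 3 comparisons, with 2-fold as dashed lines and bars of 1 probe set error (0.24, 0.36 and 0.33), which leaves out the variation between cultures. A grey cross marks Fgfr3, which was below background on all arrays, and Fgf5 reaches 5.28 for mEpiSC minus 2i.

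**Figure D3:**
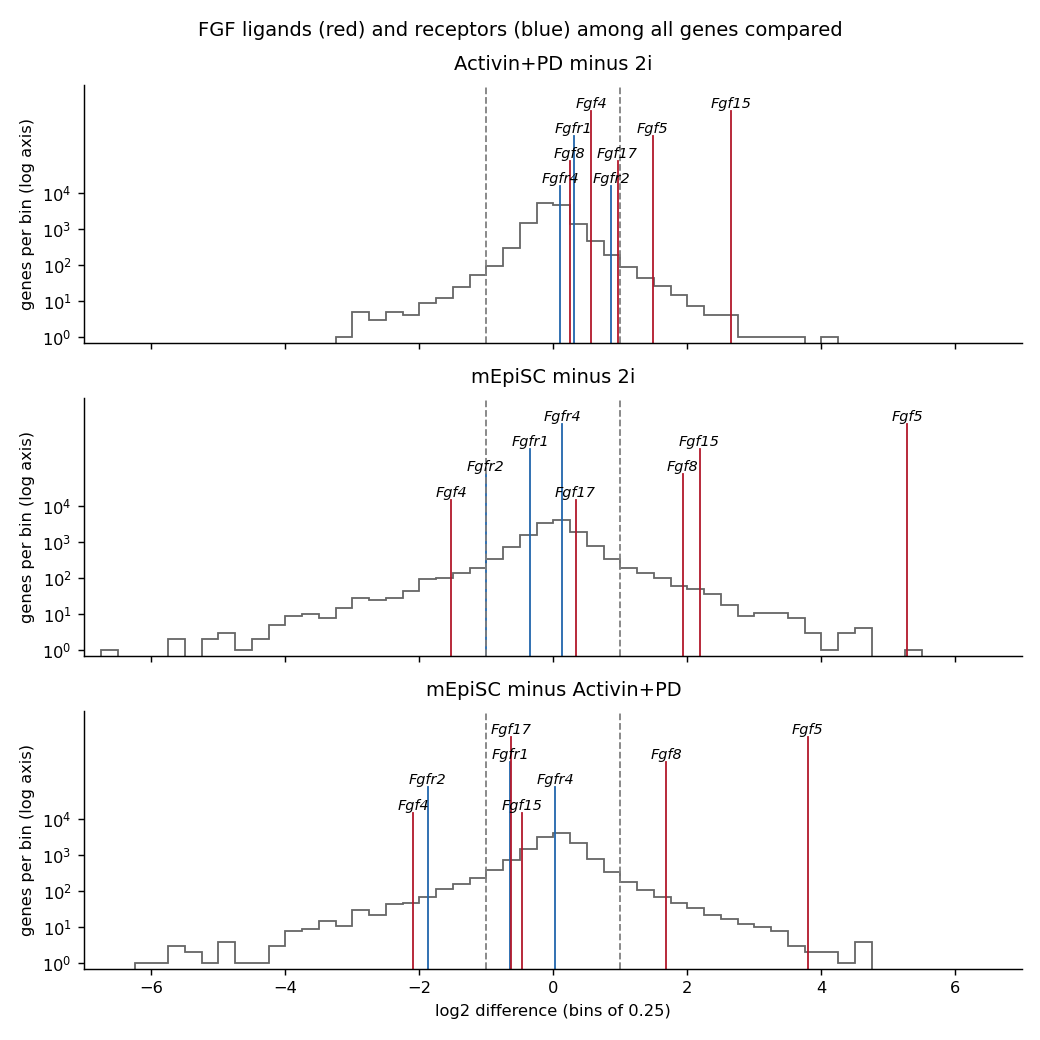
Number of genes per bin of log2 difference (outline, log axis) over all genes compared, with the FGF ligands as red and the receptors as blue lines, 2-fold as dashed lines, and line heights set only to keep the names apart. Fgf5 stands at the right edge for mEpiSC minus 2i and Fgf15 in the right tail for Activin+PD minus 2i, whereas Fgfr1 and Fgfr4 lie in the bulk of the genes in all 3 panels.

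Of the 13 secreted FGF ligands outside these 9 genes, 6 were above background on at least 1 array. Fgf18, a ligand of the same subfamily as Fgf8 and Fgf17, followed the order of Fgf17: it had an intensity of 121 in mEpiSCs, 240 in Activin+PD and 96.8 in 2i, and was 2.47-fold higher in Activin+PD than in 2i, a difference of 1.31. Fgf23, like Fgf15 an endocrine FGF and known from bone as a regulator of phosphate, was above background in Activin+PD alone, with 36.8 in mEpiSCs, 117 in Activin+PD and 40.5 in 2i. Its Activin+PD level exceeded that in 2i by at least 2.43-fold, and its mEpiSC level was lower than that in Activin+PD by at least 2.46-fold. Klb and Kl, the co-receptors on which endocrine FGFs depend, were below background on all 3 arrays, and so was Fgf21, the remaining endocrine ligand.

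Fgf2, the gene of the bFGF protein added to the mEpiSC medium, was below background on all 3 arrays, with log2 levels of 5.28 in mEpiSCs, 5.29 in Activin+PD and 5.23 in 2i. Fgf1 and Fgf22 were above it everywhere and level, with differences of at most 0.14 in size, and Fgf3 and Fgf20 were above it only on the Activin+PD array and only just, at 5.55 and 5.53. Among the intracellular FGF homologous factors, which bind sodium channels and are not secreted, Fgf13 was 1.87-fold higher in mEpiSCs than in 2i and so within 2-fold.

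**Figure D4:**
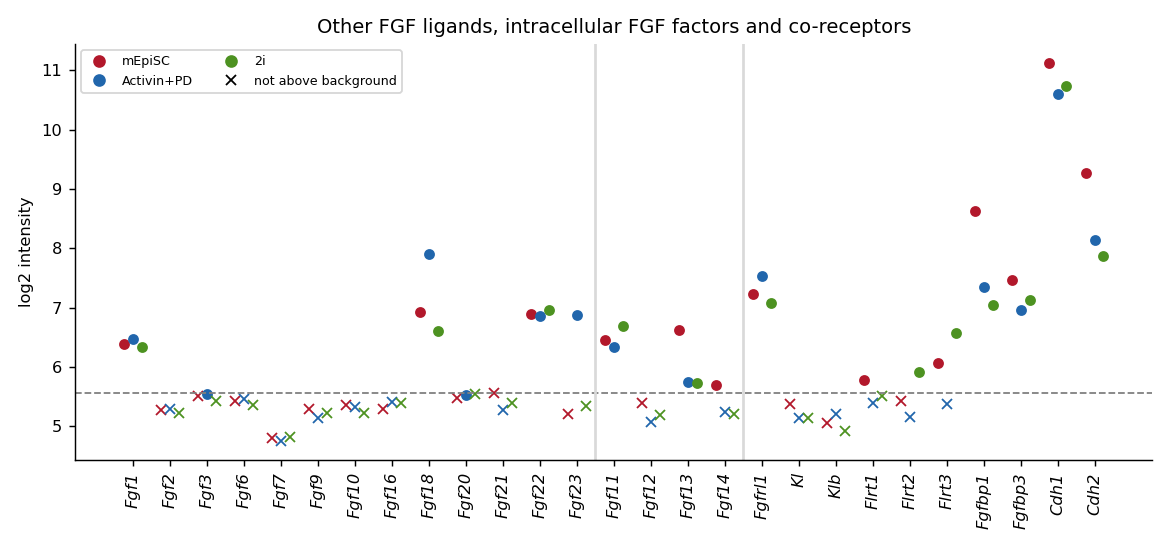
Log2 intensity of the other secreted FGF ligands (left), the intracellular FGF factors (middle) and FGF co-receptors and binding proteins (right) on the mEpiSC, Activin+PD and 2i arrays. Filled points are above the array's own background, crosses are not, and the dashed line is the mean background of the 3 arrays. Fgf18 and Fgf23 are highest in Activin+PD, and Fgf2, Kl and Klb have crosses on all 3 arrays.

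Among genes of proteins that hold FGFs or their receptors at the cell surface, Fgfbp1 and Cdh2 were higher in mEpiSCs than in both mESC cultures. Fgfbp1, a carrier that releases FGFs from the matrix, was 2.99-fold higher in mEpiSCs than in 2i (log2 8.62 against 7.04). Cdh2, the gene of N-cadherin, which can bind FGFR1, was 2.63-fold higher (9.27 against 7.87). Flrt3, a membrane protein that promotes FGF signalling, was lower in Activin+PD than in 2i by at least 2.09-fold. Fgfrl1, a receptor without a kinase domain, was within 2-fold in all 3 comparisons. Of 28 heparan sulfate genes above background, 6 exceeded their 2i level in mEpiSCs by 2-fold or more and 2 lay as far below it, with a median of 0.32. Among all genes, 4.53% were higher and 4.96% lower in that comparison. Of the 6, Extl2 and Gpc1 barely passed, at 1.01 and 1.02, and the other probe set of Gpc1 differed by 0.17. The core protein genes Sdc2 and Gpc3 were higher by 1.65 and 1.58, while Sdc4 and the sulfotransferase gene Hs6st1 stood at -1.19 and -1.16. Against Activin+PD, 2 of 28 were higher and 1 lower in mEpiSCs, beside 8.96% of all genes apart in that comparison. Between Activin+PD and 2i, 1 of 27 was apart, the glypican gene Gpc4, higher by 1.53, beside 2.2% of all genes apart.

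Of 31 listed adaptors and kinases of the cascade 23 were analysed here, and 0 were 2-fold apart between Activin+PD and 2i. In mEpiSCs 1 of 22 was apart from 2i and 1 of 23 from Activin+PD, and both times it was Gab1, an adaptor that links receptors to SHP2 and PI3K. Among all genes, 9.48% and 8.96% were apart in these comparisons, and 2.2% between Activin+PD and 2i. Gab1 stood at 7.53 in mEpiSCs, 9.96 in Activin+PD and 10.24 in 2i, with differences of -2.71 and -2.43. The list median was 0.019 in Activin+PD against 2i. It was -0.0068 in mEpiSCs against 2i, and -0.023 in mEpiSCs against Activin+PD. Some genes within 2-fold still differed by more than the probe set error. The kinase gene Braf was 1.70-fold higher in mEpiSCs than in 2i and 1.84-fold higher than in Activin+PD, and the adaptor gene Shc1 was 1.72-fold higher than in 2i. The scaffold gene Ksr1 was 1.73-fold lower in mEpiSCs than in Activin+PD.

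Of 24 feedback and target genes of ERK, 13 exceeded their 2i level by 2-fold or more in mEpiSCs, the culture without a MEK inhibitor, 11 were within 2-fold and 0 were lower, with a median of 1.06. Against Activin+PD, 12 of 24 were higher in mEpiSCs and 1 was lower, Lrig3 at -1.05, with a median of 0.995. In mEpiSCs against 2i, Dusp6 was higher by 4.61, Dusp4 by 3.19 and Spry2 by 2.77. Between Activin+PD and 2i, 3 of 23 were higher, Dusp6 by 2.56, Lrig3 by 1.32 and Dusp9 by 1.04, and the median was 0.29. The second probe set of Dusp6 was below background on all 3 arrays. Etv5 and Etv1 were counted as higher in mEpiSCs through their brighter probe sets. The second Etv5 probe set, above background on all 3 arrays, was at -0.41 against 2i and -0.59 against Activin+PD. The second Etv1 probe set was at 0.89 and 0.78, within 2-fold. Spry3, also counted as higher in mEpiSCs in both comparisons, was below background on both mESC arrays. As bounds, it was higher in mEpiSCs by at least 1.68-fold against 2i and at least 1.78-fold against Activin+PD. Among all genes, 4.53% were higher in mEpiSCs than in 2i and 3.59% than in Activin+PD, and 1.38% were higher in Activin+PD than in 2i.

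**Figure D5:**
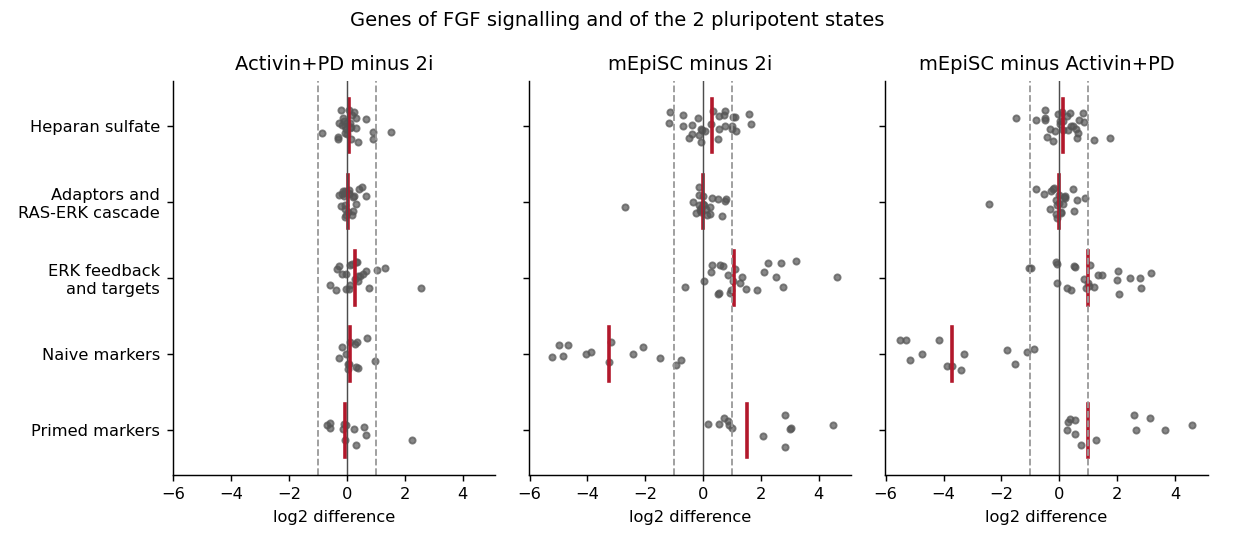
Log2 differences of single genes (points, spread vertically only for legibility) in lists of heparan sulfate genes, adaptors and kinases of the RAS-ERK cascade, ERK feedback and target genes, and naive and primed markers, with the list median in red and 2-fold as dashed lines. Measured differences are shown, also where the dimmer array was below background. Of the cascade genes, Gab1 alone lies past 2-fold, in both mEpiSC comparisons, and 13 of 24 ERK feedback genes lie past 2-fold to the right for mEpiSC minus 2i.

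In the RefSeq gene order (GRCm38.p6) Fgf3, Fgf4 and Fgf15 are consecutive protein-coding genes on chromosome 7, between Ano1 and LTO1, with the cyclin gene Ccnd1 next to LTO1. These neighbours did not share a pattern. Fgf4 was lowest in mEpiSCs and Fgf15 lowest in 2i, Fgf3 was near background on all 3 arrays, and Ano1 and LTO1 were within 2-fold in all 3 comparisons. Ccnd1 stood at 9.69 in mEpiSCs, 8.80 in Activin+PD and 9.86 in 2i, lowest where Fgf15 was brightest.

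Around Fgf5 on chromosome 5, Antxr2 and Cfap299 were above background in mEpiSCs alone, at log2 levels of 6.04 and 6.03, against 4.79 and 4.80 in Activin+PD and 4.81 and 4.74 in 2i. As bounds, they were higher in mEpiSCs than in 2i by at least 0.45 and 0.44. Prdm8, between Antxr2 and Fgf5, and Bmp3, beyond Cfap299, were within 2-fold. The receptor genes lie near related genes, with Tacc1, Letm2 and Nsd3 by Fgfr1, Tacc3, Letm1 and Nsd2 by Fgfr3, and Nsd1 by Fgfr4, and none of these was 2-fold apart in any of the 3 comparisons. Tacc1 still ran in the order of Fgfr1, at 8.04 in mEpiSCs, 8.88 in Activin+PD and 8.43 in 2i, whereas Letm2 and Nsd3 did not. The genes Wdr11, Ate1 and Plpp4 by Fgfr2 were within 2-fold too. Ate1 ran in the order of Fgfr2 with smaller differences, at 7.94 in mEpiSCs, 8.42 in Activin+PD and 8.18 in 2i. Wdr11 and Plpp4 did not follow that order. Fbxw4 and Oga by Fgf8 were also within 2-fold. Beside Fgf17, Dmtn stood at 7.06 in mEpiSCs, 8.78 in Activin+PD and 7.95 in 2i, with a difference of -1.72 for mEpiSC minus Activin+PD. Both genes were highest in Activin+PD, but Dmtn was lowest in mEpiSCs and Fgf17 in 2i. The other neighbours of Fgf17, Fam160b2, Npm2 and Xpo7, were within 2-fold.

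For each of the 5 members counted as apart in any comparison, the genes with the most similar course over the 3 arrays were looked up among 14538 others above background on at least 1 array, by the Euclidean distance between mean-centred log2 levels. With 3 arrays many genes can share a course by coincidence, and shared function was not examined. Some of these genes, such as Zscan4c at 5.46 in mEpiSCs, were below background on their dimmest array. The nearest to Fgf4 were Zscan4c, Greb1l and Egfl6, at distances of 0.040 to 0.065. The nearest to Fgf8 were Fzd6, Mir302b and Jakmip2, at 0.022 to 0.039, and the nearest to Fgfr2 were Nfkbia, Elobl and Cnnm2, at 0.047 to 0.076. Fgf5 and Fgf15, the members with the widest ranges over the arrays (5.28 and 2.65), had no gene as close. The distance is not scaled by range and few genes differ so widely, so larger distances alone do not mark a distinct course. The nearest to Fgf5 were Sema6a, Enpp3 and Cer1, at 0.65, 0.67 and 0.90, and the nearest to Fgf15 were Gm5797, Ina and Lamtor3-ps, at 0.47 to 0.49. Enpp3, for example, stood at 11.86 in mEpiSCs, 8.81 in Activin+PD and 7.45 in 2i, and Ina, a neurofilament gene, at 9.74 in mEpiSCs, 9.95 in Activin+PD and 7.98 in 2i.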

How the data were processed

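Total RNA of the 3 cultures was labelled with the GeneChip WT PLUS kit and hybridised to Mouse Gene 2.0 ST arrays, per the labels' protocols and the series' design text. The deposited values were intensities per probe set. RMA, a method of background correction, quantile normalisation and probe summary, is listed in the submitters' processing notes, and the design text names GeneSpring GX 11.5. The values were taken as linear, and no source used here says whether a constant was added. One would shrink the differences of dim genes, and quantile normalisation hides differences in total RNA per cell.

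Of 33793 probe sets, 23521 had 1 gene symbol in the platform annotation, 1814 several and 8458 none listed, and only the first were named. For 23328 probe sets the Entrez identifier was in the RefSeq table and gave the current symbol. The 1082 genes with several probe sets were represented by the one with the highest mean. A gene was compared where its brighter array was above background, and a gene below background on the dimmer array is given as "at least", though counts use its measured difference. The probe set error was the standard deviation of the disagreement between the 2 brightest probe sets of 591 to 613 genes, divided by the square root of 2. The number of arrays, 1 per group, limits the precision. Of 207 listed genes, 197 were analysed. Promoter windows were available for 5 members (RefSeq, GRCm38.p6). RefSeq coordinates served only for these windows and for gene order, since no source used here names the build of the array annotation.

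The members, lists, thresholds and alternatives were chosen with earlier results of these data known. All 9 members are named; of the lists, up to 6 genes at least 2-fold apart with the largest differences were eligible, beside defining markers, other FGF ligands above background, the 2 nearest protein-coding neighbours on each side and the 3 most alike genes. Genes named outside that rule (among them Fgf2, Fgf21, Kl, Klb, Fgfrl1, and list genes within 2-fold or below background) were chosen after their values were seen. The code that counts genes past 2-fold was run on simulated data with known changes, which checks the code and no difference between arrays. Python 3.11.15, numpy 2.4.6, pandas 2.3.3 and matplotlib 3.10.9 were used.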

Additional observations from a re-analysis of the deposited data

How the results depend on the processing

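The 8 alternatives were quantile normalisation again, median centring, 16 subtracted from each intensity, no background filter, background at the 99th percentile, values below background raised to it, the mean of all probe sets of a gene, and 1.5-fold in place of 2-fold. No member that was counted as apart changed direction under any of them, and the counts of members stayed within 1.5 times the main ones except at 1.5-fold, where 4 members were higher in Activin+PD than in 2i and 4 were lower in mEpiSCs than in Activin+PD. With 16 subtracted, 295 genes exceeded their 2i level by 2-fold in Activin+PD, and Fgf17 joined the members counted, at 1.10. At 1.5-fold, 637 genes were higher and 359 lower for Activin+PD minus 2i, 1351 and 1455 for mEpiSC minus 2i, and 1256 and 1574 for mEpiSC minus Activin+PD. Changing the fold or the background filter cannot move a difference, raising dim values can move only genes below background, and averaging probe sets only Fgf15. Member differences moved by more than the probe set error for Fgf5 and Fgf15 with 16 subtracted, at 1.88 and 2.99 for Activin+PD minus 2i and 5.84 for Fgf5 in mEpiSC minus 2i, and for Fgf15 with its probe sets averaged. Above the 99th percentile of the receptor probe sets, Fgf8 was measured on 1 array, Fgf5, Fgf15 and Fgfr2 on 2, and Fgfr4 on 0, so dim levels of these genes are bounds at most under that stricter background. No paired analysis was possible because each group had 1 array and no replicates, and none could be left out.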
